A study of Capra hircus with 3 samples.

Results

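Dermal papilla cells of the day-120 fetal Cashmere goat were described from single-cell transcriptomes of hair follicles picked from dorsal skin. A cell of the embryonic day 120 (E120) library was taken as a papilla cell when it held at least 1 transcript count of at least 3 of 5 genes, RSPO2, APOD, CHL1, GAL and FGF7. The rule took 179 of 6896 E120 cells (2.60%, exact binomial 95% interval 2.23% to 3.00%), of 20676 cells in all. Every fetus was of the Northern Shaanxi White Cashmere breed, with no treatment named in the labels. The libraries of E60, E90 and E120 stand for follicle induction, organogenesis and cytodifferentiation, with 1 library a stage. Each pooled cells of at least 2 fetuses, so there were no replicates and no difference was tested between samples. E60 and E90 skin was digested with collagenase as pieces of whole skin, whereas E120 follicles were pulled free with forceps and then digested with TrypLE. Any difference between E120 and the earlier libraries cannot be told apart from the way the cells were freed.

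The dermal papilla is the knot of mesenchymal cells enclosed by the base of the hair follicle. It forms from the dermal condensate and signals to the overlying matrix epithelium, whose descendants make the hair shaft and the inner root sheath. WNT, BMP, FGF and hedgehog signals pass between the 2 compartments, and papilla cells are known for secreting R-spondins, FGF ligands, WNT and BMP antagonists and pigment-switching signals while dividing little themselves.

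The 179 cells held 1280094 unique molecular identifier (UMI) counts, 1.37% of the library, with a median of 5842 per cell (3473 to 33389). The other 6717 E120 cells had a median of 13262. Median genes per cell were 1725 and 2313, and median mitochondrial shares were 3.05% and 5.29%. Levels are CPM, a gene's summed counts over all counts of a group of cells, scaled to 1000000. Their exact Poisson 95% intervals, given in brackets, cover counting error only, and 3 counts equal 2.34 CPM in papilla cells. A gene is called higher or lower when the ratio of CPM + 1 is at least 2-fold and the higher side reaches 20 CPM. Pairs of libraries shared 9 to 13 cell barcodes, and none of the 179 barcodes was among them.

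The rule chose the cells by RSPO2, APOD, CHL1, GAL and FGF7, so the marker counts are a description and no support for the group. Of the 179 cells, 122 had all 5 markers, 42 had 4 and 15 had 3. Beyond the limit, 38 E120 cells had 2 markers, 648 had 1 and 6031 had none. The same rule found 0 of 6849 cells at E60, with an exact 95% upper limit of 0.0538%, and 1 of 6931 at E90. The E60 and E90 libraries had medians of 8579 and 3714 UMIs per cell, against 13064 for E120. FGF7 itself was counted in 1350 E60 cells and RSPO3 in 2902, so single papilla genes were present at E60, where no cell had 3 markers.

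**Figure D1:**
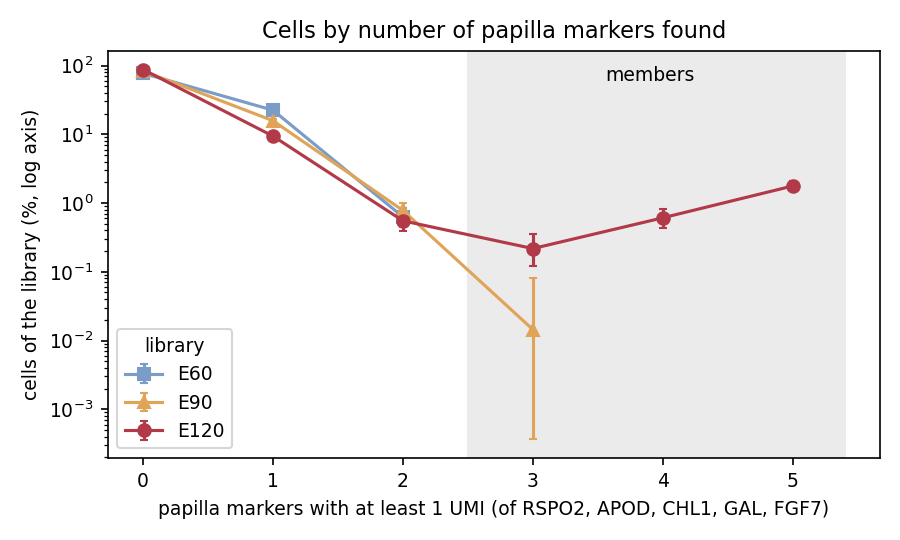
Share of each library's cells (%, log axis) by the number of the 5 rule genes with at least 1 UMI, with exact binomial 95% intervals; points at 0 cannot be drawn on the log axis. E120 turns upward from 3 to 5 markers (15, 42 and 122 cells), whereas E60 has no cell and E90 1 cell past 2 markers.

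The 5 rule genes chose the cells, so their levels are given as a description. FGF7, a ligand that acts on epithelium, stood at 2183 CPM (2103 to 2266) in papilla cells and 0.901 in the other E120 cells. In single cells it ran from 0 through a median of 20.4 to 99.2 per 10000 counts. RSPO2, a secreted amplifier of WNT signalling, stood at 1317 CPM against 0.738. The lipid carrier APOD stood at 1558 against 2.63, the adhesion molecule CHL1 at 654 against 5.74, and the neuropeptide GAL at 642 against 2.64. Papilla cells thus held 97.1% of the library's FGF7 counts, 96.1% of its RSPO2, 89.2% of its APOD, 77.2% of its GAL and 61.3% of its CHL1. Outside them, GAL had its own holder: 59 E120 cells with at least 4 genes of mural cells, the contractile cells around vessels, carried 304 CPM of GAL and none of FGF7, RSPO2 or APOD. After each cell was thinned to 2000 UMIs, FGF7 was found in 92.7% of papilla cells and 0.313% of the others, against 98.3% and 1.09% before. Every cell was deep enough to be thinned. Of 339 cells with at least 4 endothelial genes, median depth 6575, FGF7 was found in 0.590% before thinning.

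Papilla genes that the rule did not name are described next. Of 34 other papilla genes, 33 were in the table and 24 reached 20 CPM; 21 were higher in papilla cells and BMP4 alone was lower, with a median log2 ratio of 4.50. Over all 4604 genes measured in the same way, 26.7% were higher and 12.1% lower, with a median of 0.18. The cells were picked within this contrast, so these shares describe the cells and support nothing. The 26.7% and 12.1% are the background for each count of called genes against other E120 cells below. SOX2, a transcription factor of papillae of some hair types, was at 378 CPM (345 to 413) against 0.488 and was counted in 83.8% of papilla cells and 0.506% of the others. CRABP1, a retinoic acid carrier, was at 2773 against 203. In papilla cells 4 genes of the list were listed at 0, CORIN, HGF, FOXD1 and PROM1. CORIN, a protease often used as a papilla marker, had 274 counts in the E60 library and 0 in the whole E120 library.

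Among WNT pathway genes, agonists and antagonists were both high. RSPO3, the relative of RSPO2, was the leading gene outside the rule, at 1244 CPM (1184 to 1307) against 0.597, and ran from 0 through a median of 10.5 to 52.2 per 10000 counts in single cells. WNT5A, a ligand linked to β-catenin-independent signalling, was at 677 against 67.0, and NDP, a frizzled ligand, at 27.3 against 5.68. WNT10A, an epithelial ligand, was lower, at 21.1 against 50.1. With these, 3 of the 4 measured agonists were higher and 1 lower. Of 6 measured inhibitors 5 were higher and none lower. They were SFRP1 (1244 CPM against 10.4), SFRP2 (309 against 0.0651), SOSTDC1 (1136 against 8.12), WIF1 (1271 against 40.1) and DKK3 (20.3 against 0.554). Of the library's SFRP2 counts 98.5% were in papilla cells. Receptors and effectors were mixed, 5 higher and 2 lower of 11, beside 26.7% and 12.1% of all 4604 measured genes. The R-spondin receptor LGR4 was at 39.1 against 2.55 and TCF7L2 at 205 against 25.2, whereas LEF1 was at 102 against 188 and was not called.

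BMP and TGFβ genes showed antagonists and response genes high side by side. All 5 measured inhibitors were higher. BAMBI, a decoy receptor, was at 3324 CPM (3225 to 3425) against 581, and the activin-binding FST at 480.4 against 11.4. Of 7 ligands 5 were higher, among them the activin subunit INHBA (441 against 1.76), BMP7 (511 against 127), GDF10 (99.2 against 0.228) and BMP3 (70.3 against 0.0760). BMP2 and BMP4 were lower; BMP4 had 25.8 CPM against 71.8. Among receptors and response genes 4 of 8 were higher and none lower, beside 26.7% and 12.1% of all 4604 measured genes. ID3, a transcriptional inhibitor induced by BMP, was at 6575 against 1609 and was counted in 99.4% of papilla cells, and ID1 was at 3238 against 1740.0, just under the limit.

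Growth factor genes followed, with 7 of 10 ligands higher and KITLG lower, beside 26.7% and 12.1% of all 4604 measured genes. The endothelin EDN3, a growth signal for melanocytes, was at 680.4 CPM (636 to 727) against 0.608. FGF10 was at 102 CPM, IGF1 at 321 against 3.34 and VEGFA at 348 against 47.3. KITLG, the ligand of the receptor KIT on melanocytes and mast cells, was at 84.4 against 310.3. Of 11 measured receptors and IGF-binding proteins 9 were higher and none lower, led in ratio by PDGFRA (121 against 0.239) and FGFR1 (520.3 against 5.04), with IGFBP5 at 1771 against 42.9. ASIP, the agouti signal that switches pigment type, was at 2137 against 212; it was chosen after its values were seen. HGF was listed at 0.

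The hedgehog genes divided by role. HHIP, a hedgehog-binding antagonist, was at 341 CPM against 0.564, the receptor PTCH1 at 399 against 51.5 and the effector GLI3 at 88.3 against 28.7. The ligand SHH, made by matrix epithelium, was at 3.12 against 31.0. In the notch pathway 2 of 6 genes were higher and 1 lower, beside 26.7% and 12.1% of all 4604 measured genes. The median log2 ratio of the 6 notch genes was -0.05. HEY2, a transcriptional repressor of that pathway, was at 371 against 1.82, HEY1 at 69.5 against 20.1, and the ligand JAG2 at 16.4 against 67.3.

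Of 21 measured transcription factors of skin mesenchyme, 16 were higher and 2 lower, beside 26.7% and 12.1% of all 4604 measured genes. RUNX3 was at 316 CPM against 0.391, TBX15 at 158 against 0.988, PRRX1 at 129.7 against 1.07 and SOX18 at 175 against 29.2. SOX18 is also an endothelial gene and stood at 849 in the endothelial-marker cells, where SOX2 was at 0. MSX1 and HOXC13, which matrix epithelium also uses, were lower, HOXC13 at 78.9 against 359. TWIST2 was listed at 0.

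Matrix genes were mostly higher in papilla cells, though collagen took a small share of their counts. All 7 measured fibrillar and associated collagens were higher than in the mostly epithelial remainder, COL1A1 at 575 CPM against 16.8 and COL1A2 at 660.1 against 21.5. No papilla cell had 0.5% of its counts from these 2 genes, and 118 of 179 had 0.1%. Of 16 measured proteoglycan and matricellular genes 13 were higher and 1 was lower, beside 26.7% and 12.1% of all 4604 measured genes. FBLN1, an elastic-fibre protein, was counted in all 179 cells, from 1.90 through 19.8 to 49.2 per 10000 counts, and stood at 1830.3 CPM against 31.3. FN1 was at 412 against 3.07 and VCAN, the proteoglycan of papilla matrix, at 349 against 8.41. DCN, a proteoglycan of dermal fibroblasts, was lower, at 137 against 380.3 in this mostly epithelial remainder, which is not a fibroblast level. DCN was at 1673 in the 47 other cells of the papilla cluster described below, 492 in mural-marker cells and 140 in endothelial-marker cells. Basement membrane genes were higher in 6 of 9 cases, led by LAMA2 (306 against 0.847). Of 12 neural adhesion and guidance genes 9 were higher and 1 lower, with NCAM1 at 282 against 21.7 and NTRK2 at 64.1 against 0.488. Of 3 measured smooth muscle and dermal sheath genes 2 were higher, TPM2 and MYLK, and 1 was lower. The list summed to 401 CPM against 68.5 and was counted in 151 of 179 papilla cells. The lower gene was the smooth muscle actin ACTA2, a mark of the dermal sheath around the follicle, at 19.5 against 41.2. With 10 CPM instead of 1 added to each level, ACTA2 was not called.

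The rest of the 20 leading genes were secreted or membrane proteins. ENPEP, an angiotensin-cleaving peptidase, was at 765 CPM against 1.13. PAPPA2, a protease of IGF-binding proteins, was at 485 against 0.282, and PCOLCE2, an enhancer of procollagen processing, at 493 against 0.532. WFDC2 was at 295 against 0.326 and was counted in 37.4% of papilla cells, with a highest cell at 85.0 per 10000 counts. SCUBE3 was at 267 against 0.347, FBN2, a microfibril protein, at 202 against 0.347, and CP, the copper carrier ceruloplasmin, at 171 against 0.163. SPON1 was at 153 against 0.195 and the parathyroid hormone receptor PTH1R at 191 against 0.771.

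**Figure D2:**
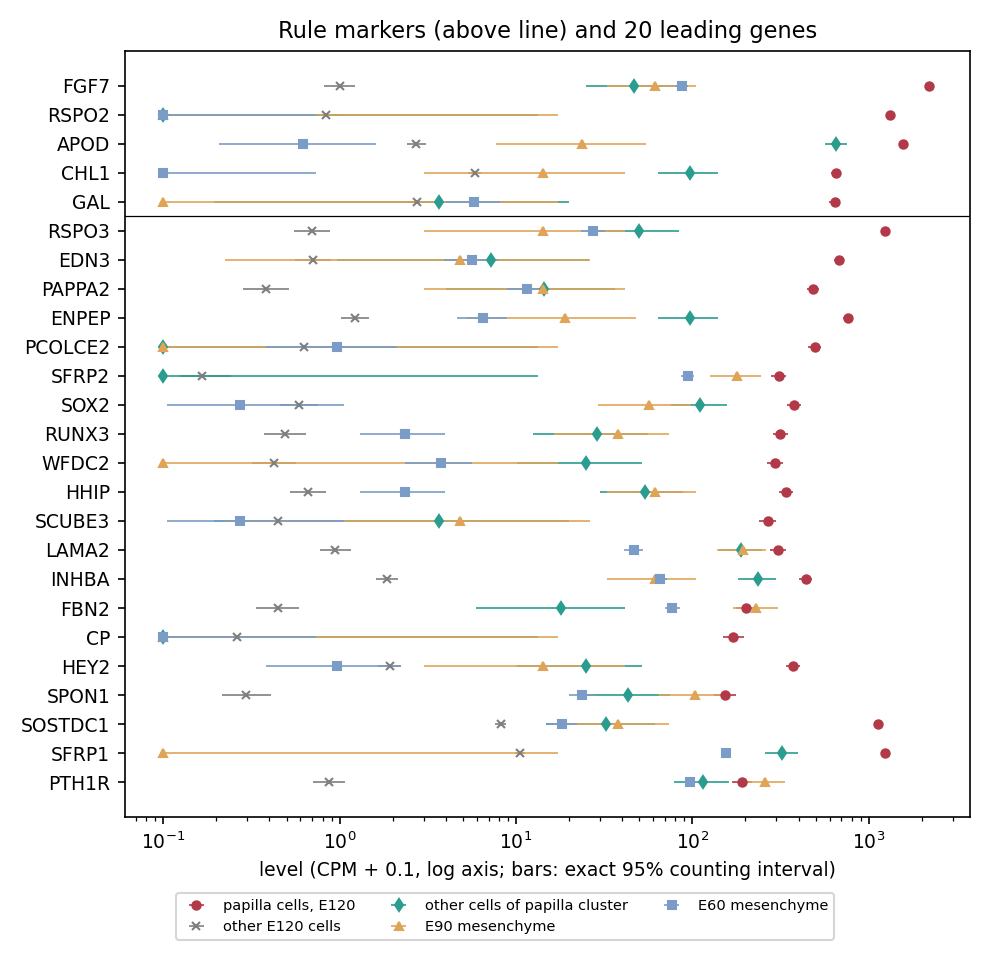
Levels (CPM + 0.1, log axis) of the 5 rule genes, above the line, and the 20 leading genes below it, in papilla cells, other E120 cells, other cells of the papilla cluster and collagen-rich mesenchyme of E90 and E60; bars are exact 95% counting intervals. Papilla cells lie far to the right of the other E120 cells for all 25 genes, while FBN2, PTH1R and SFRP2 also have E90 or E60 values near theirs.

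**Figure D3:**
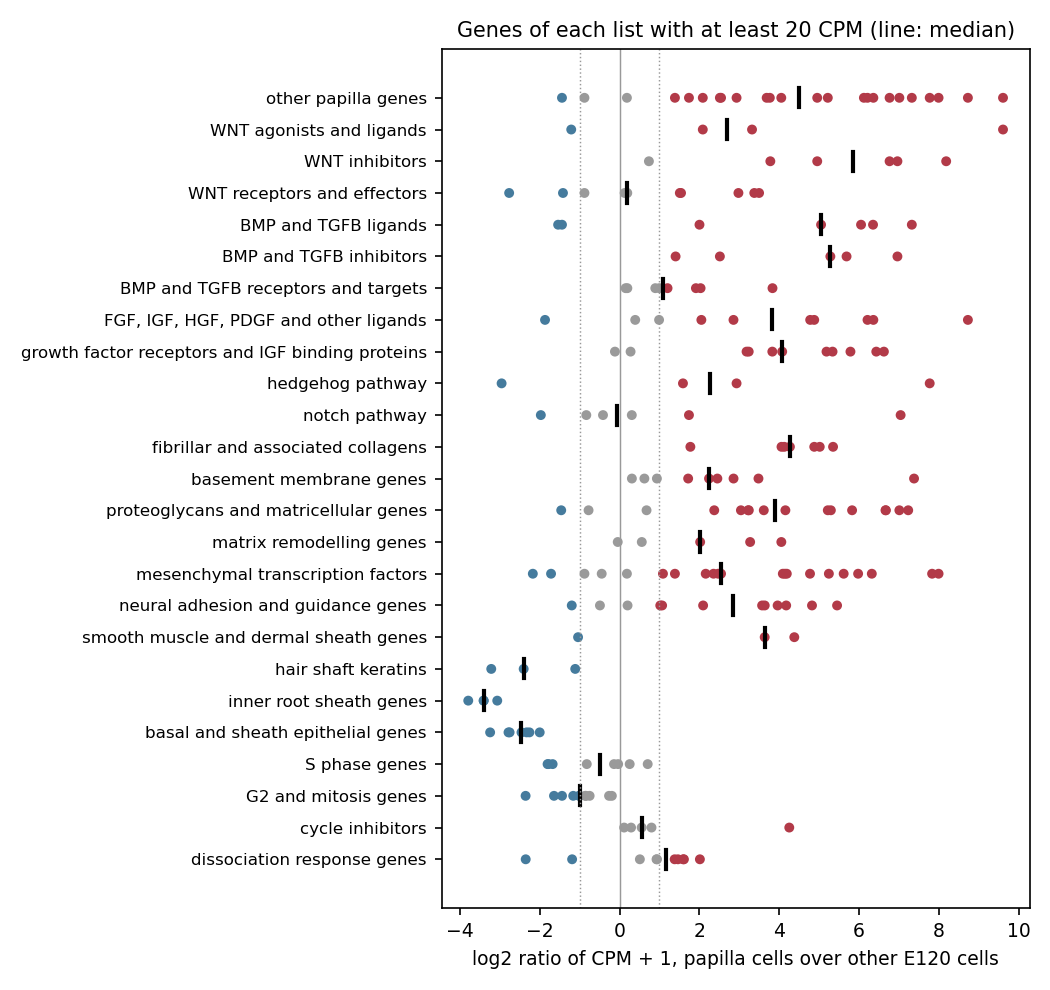
Log2 ratios of CPM + 1 of papilla over other E120 cells, 1 point per listed gene with at least 20 CPM on either side, red at least 2-fold higher, blue at least 2-fold lower, grey neither, with black lines for medians. Papilla, WNT inhibitor, BMP and matrix lists lie mostly to the right, and keratin, basal epithelial and mitosis lists to the left.

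Cycle genes were not called higher in papilla cells, apart from 1 inhibitor. None of 8 measured S phase genes was higher and 3 were lower, and of 11 genes of G2 and mitosis none was higher and 6 were lower. Over all 4604 measured genes 26.7% were higher and 12.1% lower. CDKN1C, an inhibitor of cyclin-dependent kinases, was at 431 CPM against 21.7 and was counted in 88.3% of papilla cells and 14.4% of the others. The S phase list was counted in 136 of 179 papilla cells, with a median of 204 CPM per cell against 259.6 in the other E120 cells. The mitosis list was counted in 48 papilla cells, and its sum came from a few: 15 papilla cells with over 12000 UMIs had 1724 CPM and the other 164 had 56.6. Without those 15 cells, a limit chosen after seeing the data, all 11 measured mitosis genes were lower. Among the 70 papilla cells with the least hair keratin, 2 of 11 were.

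The 15 deep cells differed in more than cycle genes. They held 22.8% of the papilla counts, and 11 of them were among the 6% of E120 cells with the highest doublet scores. Rule genes summed to 2266 CPM in them and 7559 in the other 164, basal epithelial genes to 865 and 154, and hair shaft keratins to 5552 and 928. PECAM1, at 44.6 in the deep cells, was at 0 in the rest. Its counts came from a single deep cell, of 12161 UMIs, which held counts of 8 endothelial genes. Of all 179 cells, 19 (10.6%) had such doublet scores, against 5.72% of the other E120 cells. Without the deep cells 19 of the 20 leading genes stayed in the top 20, but 2 of the 10 lowest did.

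Markers of other skin cells differed from list to list. Endothelial genes were counted in 8 papilla cells (summed 29.7 CPM, range per cell 0 to 2302), against 2402 CPM in endothelial-marker cells. Mural genes were counted in 93 cells and summed to 127 CPM, against 71.1 in the other E120 cells and 3161 in mural-marker cells, and the muscle filament gene DES, at 56.2 against 0.434, was the member of that list called higher. Myeloid genes were counted in 21 cells, summing to 60.9 CPM against 15.7, with C1QA and C1QB higher and the highest cell at 3386. With every cell given the same weight neither was called. Schwann and melanocyte lists summed to 9.37 and 8.59 CPM. Basal epithelial genes were counted in 80 cells and summed to 316 CPM against 1884, with a median of 0 per cell. Of 10 genes that respond to tissue dissociation 5 were higher and 2 lower, beside 26.7% and 12.1% of all 4604 measured genes. Their sum was 12501 CPM against 5457. It was 9172 in endothelial-marker cells, 10682 in mural-marker cells and 21171 in the 47 other cells of the papilla cluster described below. FOS stood at 6809 against 2255 and JUN at 3982 against 1529; their part in the differences above was not tested.

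Hair keratin transcripts were found in nearly every papilla cell, at levels from 0 to 24734 CPM. The listed hair shaft keratins, of which KRT35, KRT84 and KRT85 reached 20 CPM, were counted in 175 of 179 cells. The median per cell was 830 CPM (lower and upper quartile 560 and 1092), next to 749 in endothelial-marker cells, 773 in mural-marker cells and 1175 in all other E120 cells. Neither endothelial nor mural cells make hair keratin, and KRT85 was counted in 92.9% and 93.2% of them, against 89.4% of papilla cells and 95.3% of the other E120 cells. Median depths were 6575, 5506, 5842 and 13262 UMIs. The share of papilla cells with KRT85 was thus below that in both of these cell types, which should lack the gene, while the median summed level was above theirs. The KRT85 level was 741 CPM in papilla cells, 1193 in endothelial-marker cells and 538 in mural-marker cells. No papilla expression is read from these values, and the source of the transcripts was not tested.

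The summed level rested on few cells. It was 1980.3 CPM (1904 to 2059) in papilla cells, 2706 in endothelial-marker cells, 1034 in mural-marker cells and 13072 in all others. Of the 179 papilla cells, 8 exceeded 3000 CPM and 3 exceeded 10000. In the 164 cells up to 12000 UMIs the sum was 928 CPM, and KRT35 and KRT85 stood in a ratio of 0.868 (0.759 to 0.992), against 0.859 in all other E120 cells. In the 15 deep cells the ratio was 2.16 (1.93 to 2.41). For KRT71, an inner root sheath keratin, the ratio to KRT85 was 0.755 (0.656 to 0.867) in the 164 cells and 0.591 in the other E120 cells, whose intervals do not overlap. It was 0.00473 in the 10% of E120 cells richest in hair keratin.

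**Figure D4:**
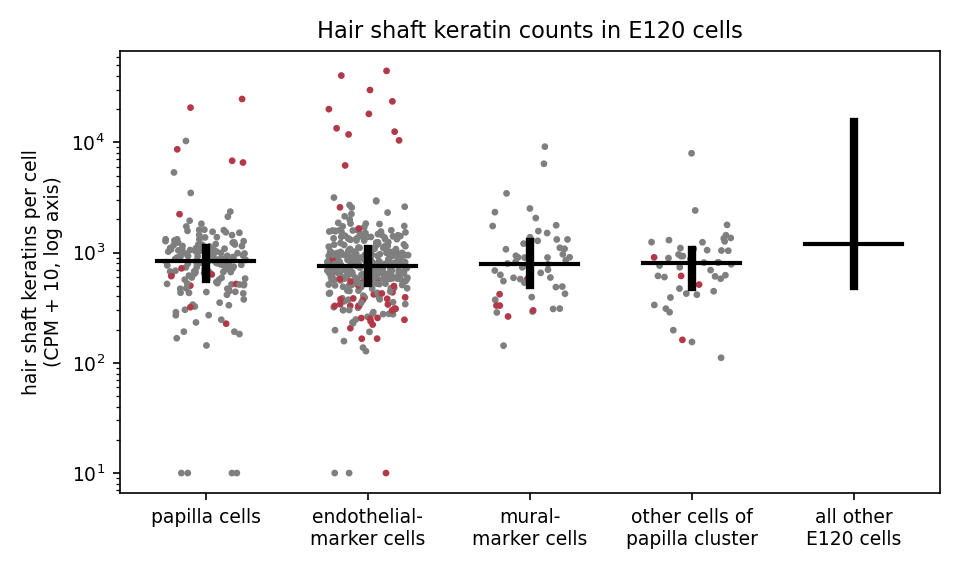
Summed hair shaft keratins per cell (CPM + 10, log axis) in papilla cells, cells with at least 4 endothelial or 4 mural genes, other cells of the papilla cluster and all other E120 cells; each point is a cell, red over 12000 UMIs, with the median and quartiles in black (no points for the last group). Medians of 749 to 830 CPM sit close together in the first 4 groups.

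The 10 genes lowest in papilla cells were of the hair shaft, the inner root sheath and their epithelium. KRT25 was at 128 CPM against 1785, KRT71 at 383 against 4063, KRT85 at 741 against 6880.1 and the desmosomal gene DSP at 49.2 against 474. KRT27, KRT28, SBSN, LY6G6D, GPRC5D and MT4 completed them. In endothelial-marker cells the summed levels were higher, KRT25 at 355 and KRT71 at 991, and 10 of those 339 cells exceeded 10000 CPM of hair shaft keratins. Per cell the order turned: the median of the inner root sheath list was 681 CPM in papilla cells, 549.6 in endothelial-marker cells and 597.7 in mural-marker cells.

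Clustering of all E120 cells set the papilla cells apart almost whole. One of 27 clusters, with 223 cells, took in 176 of the 179 and 47 others, of which 15 had 2 rule genes and 32 had 1 or none. The clusters use these same genes, so this is no separate evidence. Each of the 3 cells outside had 12161 UMIs or more. One held counts of 8 different endothelial genes, and 1 had 6554 CPM of hair keratin. The other, the deepest papilla cell, held counts of 8 different basal epithelial genes.

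At a finer resolution the cluster parted into a group of 159 cells, 158 of them papilla cells, and a group of 64, with 18 papilla cells. Genes named here were chosen after their values were seen. The second group was led by COL11A1, COL1A2, COL1A1, ACTG2, TNMD and LUM. The 158 papilla cells of the first held 0.880 CPM of MGP, an inhibitor of calcification, against 754 in the 64, 16.7 of ACTA2 against 2887, and 0 of the tendon and ligament gene TNMD against 287. Within the 64 these genes belonged to the cells outside the rule: MGP was counted in 78.3% of those 46 and in 0% of the 18 papilla cells, and ACTA2 in 63.0% and 5.56%. In the other direction stood PCOLCE2 (554 against 0), CP (193 against 0), GAL (718 against 11.04), RSPO2 (1456 against 52.4) and EDN3 (745 against 41.4). GAL and RSPO2 are rule genes, and 46 of the 64 cells were outside the rule, which favours these gaps. Within the 64, RSPO2 was counted in 55.6% of the 18 papilla cells and 0% of the 46 others. EDN3 was counted in 44.4% and 2.17%, and GAL in 5.56% and 2.17%. Other genes named above were common in the 46 cells. CRABP1 was counted in 84.8% of them, NCAM1 and PRRX1 in 69.6%, TBX15 in 63.0%, and INHBA, LAMA2, IGF1 and VCAN in 54.3%. RSPO3, HEY2 and SFRP2 were counted in 8.70%, 6.52% and 0% of them. VCAN was at 385 CPM in the 158 papilla cells and 442 in the 64 cells, and TBX15 at 167 and 213. The 47 cells outside the rule in the coarser cluster held 111 CPM of SOX2, 653 of APOD and 1413 of WIF1, with 3728 of ACTA2 and 4709 of COL1A1, against 19.5 and 575 in papilla cells, and no RSPO2.

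Cells just inside and just outside the rule are given next, as a description. The 15 cells with 3 markers had no GAL, 217 CPM of RSPO2 and 554 of RSPO3, with 4084 of WIF1 and 11082 of the chemokine CXCL14. The 15 cells with 2 markers in the papilla cluster had no RSPO2, 61.9 of RSPO3, 2041 of WIF1, 9612 of CXCL14 and 2635 of COL1A1. The 122 cells with all 5 markers had 629 of CXCL14. The 23 cells with 2 markers in other clusters, with a median of 17916 UMIs, had no SOX2 and 3457 CPM of KRT85.

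Papilla cells varied most in CXCL14. With every cell thinned to 3000 UMIs, 511 genes had a mean of at least 0.5. CXCL14 had the highest variance relative to its mean, 31.2 against a median of 1.22, was found in 91 of 179 cells and reached 66 in 1. FABP3.1 (15.9), DEPP1 (14.4), KRT35 (12.1), the dissociation gene FOS (11.6), the stress chaperone HSPA5 (11.1), CRABP1 (11.03), WIF1 (10.3) and SOSTDC1 (9.55) followed. In all, 82 of the 511 genes had a variance at least 2 times the mean. For KRT35, 1 cell gave 13.99% of the counts, and for DEPP1, found in 16 of 179 cells, 1 cell gave 23.7%. For FABP3.1, whose name marks it as 1 of several copies and whose level is uncertain, 1 cell gave 24.7%. The rule genes stood below the genes named first but above the median of 1.22. They were at 4.93 for APOD, 3.99 for FGF7, 2.73 for GAL, 2.53 for RSPO2 and 1.76 for CHL1. The rule asked for counts of at least 3 of these 5 genes, so the choice of cells limits their spread.

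Several signal genes varied together from cell to cell, and WIF1 and CXCL14 varied against most of them. Spearman's rho over the 179 thinned cells, which share 1 library, was 0.52 for FGF7 and RSPO3, 0.48 for FGF7 and EDN3, 0.48 for FGF7 and IGFBP5 and 0.43 for PAPPA2 and CRABP1. It was 0.39 for WIF1 and CXCL14, -0.39 for RSPO3 and CXCL14 and -0.41 for CXCL14 and IGFBP5. Without the 15 deep cells the value for FGF7 and RSPO3 was 0.48 and that for CXCL14 and IGFBP5 -0.45. Of the 210 pairs of 21 genes, chosen after clustering, 22 exceeded 0.3 and 7 lay under -0.3, with a median of 0.07.

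**Figure D5:**
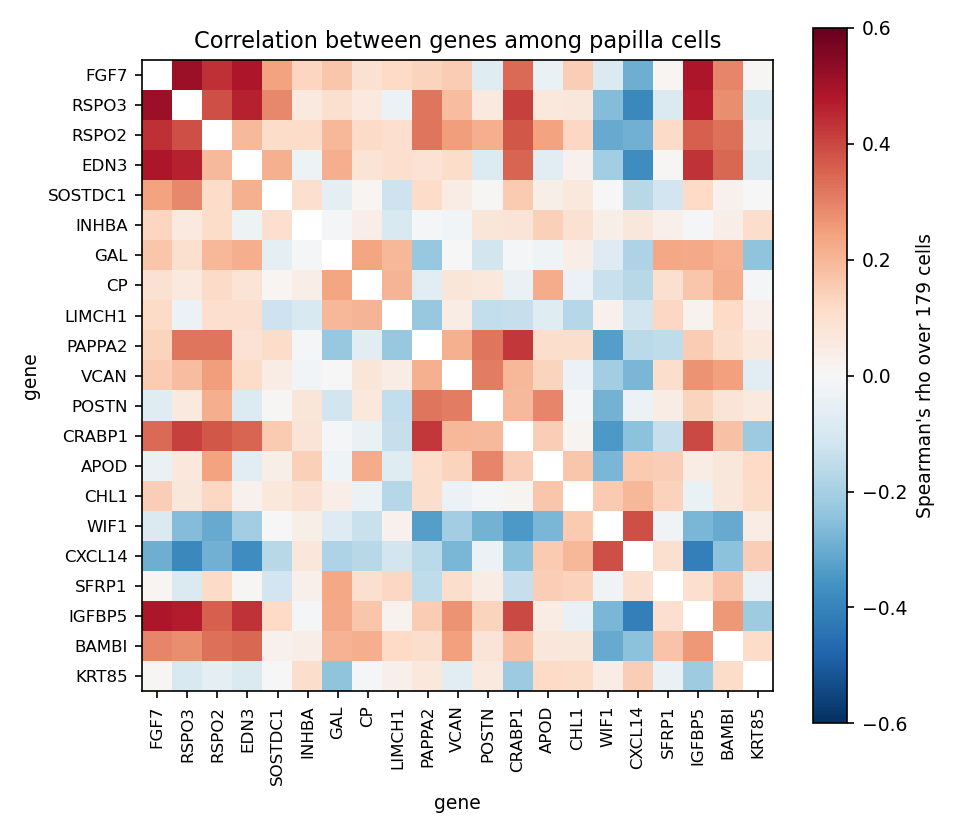
Spearman's rho between 21 genes over 179 papilla cells thinned to 3000 UMIs each (colour scale from -0.6 to 0.6, diagonal blank). FGF7, RSPO3, RSPO2, EDN3 and IGFBP5 form a positive block, and the rows of WIF1 and CXCL14 are mostly negative against it.

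Clustering the papilla cells alone gave 6 groups, described by the genes that defined them and not tested. A group of 49 cells led with CP, SPARCL1 and LIMCH1 and had 1214 CPM of GAL against 486 in the rest. One of 42 cells led with PAPPA2 (1148 against 278) and had more CRABP1 (5844 against 1813), VCAN (695 against 241) and POSTN (505 against 136). One of 28 cells led with SOSTDC1 (2742 against 835) and had FGF7 at 4638 against 1723 and EDN3 at 1421 against 542. One of 24 cells led with CXCL14 (11823 against 434) and had WIF1 at 5222 against 883, RSPO2 at 515 against 1396 and CP at 0. One of 20 cells led with MX1 and had OAS1 and ISG17, genes of the interferon response, among its first 10. The last, of 16 cells with a median of 17565 UMIs, held 13 of the 15 deep cells and led with CENPF and TOP2A. The 6 groups had median hair keratin levels between 685 and 1016 CPM.

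Papilla cells were set beside collagen-rich mesenchyme of the earlier stages. Mesenchyme was taken as cells with at least 1% of counts from COL1A1 and COL1A2, 32 cells at E90 and 677 at E60. These cells were chosen by collagen and are not a papilla precursor by any label, and collagen levels between the groups follow from the rule. Near the limit lay 49 E90 cells at 0.8% and 16 at 1.2%, and 907 and 482 at E60. Of 5180 genes measured against E90, 15.9% were higher in papilla cells and 24.6% lower, with a median log2 ratio of -0.16. Lower calls outnumbered higher ones, 1274 to 823, but with a collagen share of 0.1%, chosen after seeing the data, the order turned to 568 lower and 671 higher. Of 4605 against E60, 23.2% were higher and 11.2% lower, with a median of 0.28. Scaling by the median ratio would move the E60 values by 0.16. The 2 comparisons share the papilla cells.

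All 5 rule genes were higher than in both, which the rule favours. Among other papilla genes 13 of 25 were higher than in E90 mesenchyme and 2 lower, and 19 of 24 higher than in E60 and 1 lower. SOX2 was at 378 CPM in papilla cells, 56.3 in E90 and 0.173 in E60 mesenchyme. RSPO3 was at 1244, 14.1 and 27.3, EDN3 at 680.4, 4.70 and 5.54, and HEY2 at 371, 14.1 and 0.865. BAMBI was at 3324, 0 and 141, and ID3 at 6575, 159.7 and 249.8. SFRP1 was at 1244, 0 and 156, whereas SFRP2 was at 309, 178 and 94.2. The 32 E90 cells held 212964 counts, so 3 counts equal 14.1 CPM there, and BAMBI and SFRP1 were at least 236-fold and 88.3-fold higher in papilla cells than that floor. Not all papilla genes set the cells apart from both earlier mesenchymes. IGF1 was at 321, 413 and 364, and CRABP1 at 2773, 1878 and 4506. PTCH1, at 399, 709 and 7.27, was called higher against E60 but not against E90.

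Several genes stood far below earlier mesenchyme. DLK1, an imprinted gene of immature mesenchyme, was at 0 in papilla cells, 14.1 CPM at E90 and 4485 at E60, and TNMD at 0 against 216 at E90 and 1677 at E60. OGN, a small proteoglycan, was at 10.9 against 2165 and 3171, MFAP5 at 2.34 against 723 and 1681, and the opioid precursor PENK at 0 against 484 and 133. DCN was at 137 against 5607 and 9249. Of 24 proteoglycan and matricellular genes measured against E90, 15 were lower and 2 higher, and of 22 against E60, 12 were lower and 4 higher. The mesenchyme cells were chosen by collagen, so their levels of other matrix genes may follow from that choice, which was not tested. Among the 8 genes furthest above E90 were also KRT35 and KRT85, at 1118 and 741 in papilla cells and 0 in both mesenchymes, alongside the hair keratin background described above.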

How the data were processed

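Single-cell transcriptomes were made with the 10x 3′ v3 kit, per the labels' protocols, and handled with Cell Ranger 3.0.2, per the submitters' processing notes. The genome build and annotation are not given in the sources used here. The deposited table holds natural log values, ln(1 + counts scaled to 10000 per cell), for 16739 genes. Whole UMI counts were recovered from it (tolerance 0.01) and summed per group. As each stage had a single library, differences are described without tests. Ratios use CPM + 1. Genes past 2-fold with at least 20 CPM on the higher side were called.

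Members and gene lists (32 lists, 430 of 476 genes in the table) were chosen with earlier results of these data known. Genes named were the 20 with the largest and 10 with the smallest ratio to other E120 cells, the 4 highest and 3 most changed of each list, and the 8 largest and smallest against E90 and E60 mesenchyme. Other genes named were chosen after their values were seen, among them those of the finer clusters, of the variation among cells and of the cells near the limit. Endothelial-marker and mural-marker cells had at least 4 genes of their list. Mesenchyme was planned with COL3A1 as well, which was not used here. Keratin genes have close relatives, so reads may be split between them.

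E120 cells were clustered with Leiden (2000 variable genes, 30 components, 20 neighbours, resolution 1; alternatives 0.5 and 2). Doublets were scored against simulated pairs and kept; the 6% of cells with the highest scores were marked. Cells were thinned to 2000 UMIs for shares and to 3000 for variation. The calculation was tested on simulated data. Software was Python 3.11.15, numpy 2.4.6, scipy 1.17.1, scikit-learn 1.9.0 and leidenalg 0.10.2. Alternatives covered the rule, cell filters, doublets, weighting, pseudocount, scaling, collagen share and cluster resolution.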

Additional observations from a re-analysis of the deposited data

How the results depend on the processing

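No paired analysis was possible because each stage has 1 library. The number of papilla cells was 217 with at least 2 markers, 164 with at least 4, 165 to 179 with 1 marker left out of the rule and 162 after thinning. Genes higher than in other E120 cells numbered 1011 to 1441 over the alternatives. Genes lower numbered 371 with a pseudocount of 10 CPM, against 557, and 770 without the 15 cells over 12000 UMIs. Summed hair keratin in papilla cells was 464 CPM in the 70 cells at or under the endothelial-marker median, 900.2 without the highest doublet scores, 1282 with each cell weighing the same and 928 without cells over 12000 UMIs, an alternative chosen after seeing the data. Against E90 mesenchyme, a collagen share of 2% left 5 cells and gave 1377 genes higher and 2137 lower. A share of 0.1%, also chosen after seeing the data, took in 3311 cells and gave 671 higher and 568 lower, so that 54.2% of calls were higher, against 39.2% at 1%. The log2 ratio of CENPF to other E120 cells turned to 0.085 in the 70 cells with little hair keratin, and that of PDGFRA to E90 mesenchyme turned to 0.37 at 0.1% collagen. The cause was not tested. One library per stage and counting error limit every value.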
